A study of Mus musculus with 6 samples.

Results

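This account covers the reads of mouse serum that were annotated to tRNA genes for glycine (tRNA-Gly), 1 of the 4 tRNA types whose fragments the study set out to deplete. Members were taken as every sequence listed as tRNA whose gene name carries the amino acid Gly, whatever its count. They made up 1391 and 1234 of the 12354 and 11241 distinct tRNA sequences of NEBNext libraries 1 and 2, 1023 and 936 of 9481 and 8920 for TruSeq, and 1240 and 1315 of 7542 and 7706 for TailorMix. By gene name they fell on 29 of 403 tRNA genes and on 4 of 49 anticodons.

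All 6 libraries were small RNA libraries of serum from healthy 129/SVj mice, male and female, 2 to 9 months old, with no transgene and no treatment other than the anaesthetic given before blood was drawn. All serum was spun a second time to remove cell debris, and all libraries were size-selected in the same way. The labels tell the groups apart only by the kit used to turn the RNA into a library. It was the NEBNext Multiplex Small RNA kit, the TruSeq small RNA kit v2 or the TailorMix miRNA kit v2, with 2 libraries each. RNA was isolated from serum of individual mice, and the labels do not say which mouse stands behind which library. They number the serum within each kit, but do not say whether the same number means the same serum in every kit. Mouse, sex and age may thus differ between the kits, and their part in a kit difference cannot be told apart from that of the kit. The comparison asks how far the choice of kit sets the share of each tRNA fragment that is read. Between 4911281 and 25976737 reads per library were annotated as tRNA, 95.5% to 98.9% of all annotated reads.

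A tRNA carries an amino acid to the ribosome and reads a codon through the 3 bases of its anticodon, and tRNAs for the same amino acid with different anticodons are called isoacceptors. Under stress, ribonucleases such as angiogenin cut mature tRNAs in the anticodon loop, and the resulting 5′ and 3′ pieces are stable enough to be found outside cells. The 5′ fragments of tRNA-Gly and tRNA-Glu are known as abundant small RNAs of mammalian serum. The lists used here give neither the letters nor the length or position of a read, so fragments of every length are counted together and no sequence can be shown. In cell-free samples, the number of cells that release a fragment and the amount released by each cell cannot be told apart.

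Glycine fragments were the runner-up among 21 tRNA types in the NEBNext and TailorMix libraries and took the fourth place in the TruSeq libraries. NEBNext listed 10172558 and 6346552 Gly reads, which is 39.2% and 37.9% of the tRNA reads. TruSeq listed 1595863 and 1390933, or 14.2% and 15.3%, and TailorMix 1982658 and 2107779, or 40.4% and 41.6%. Both TruSeq libraries lay below all others, and the pairs of NEBNext and TailorMix libraries did not overlap but sat close together. The kit means were 38.5% ± 0.926 for NEBNext, 14.7% ± 0.756 for TruSeq and 41.0% ± 0.885 for TailorMix (SD, n = 2 each). At these depths the 95% Wilson interval of a library's share was at most ± 0.0434 percentage points, so the spread between libraries was far wider than counting error. A two-sided exact test that permuted libraries among kits and compared F ratios gave p = 0.0667, the smallest value that 15 groupings allow (0.107 after Benjamini-Hochberg adjustment over 8 such tests).

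**Figure D1:**
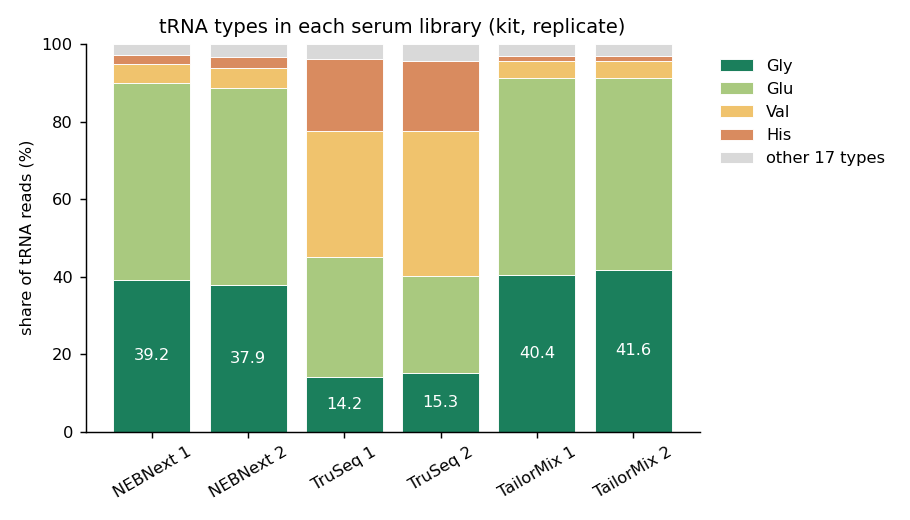
Stacked bars give the share of tRNA reads (%, linear axis from 0) taken by Gly, Glu, Val, His and the other 17 types in each of the 6 libraries, with the Gly share printed in its segment. Gly filled 37.9% to 41.6% of the NEBNext and TailorMix bars and 14.2% to 15.3% of the TruSeq bars.

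Set against miRNA, the RNA class that such libraries are made to measure, the order of the kits was another one. For each miRNA read NEBNext had 45.2 and 38.4 Gly reads, TruSeq 4.54 and 4.93 and TailorMix 10.2 and 10.7. NEBNext and TailorMix, with nearly the same Gly share of tRNA reads, thus stood apart on this ratio, and none of the 3 pairs overlapped.

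In the edgeR quasi-likelihood test across all 21 types, scaled to the tRNA reads of each library, Gly was lower with TruSeq than with NEBNext by a log2 fold change of -1.39 ± 0.11 (SE, Benjamini-Hochberg adjusted p = 8.44e-19). TailorMix gave more Gly than TruSeq by 1.48 ± 0.11 on the log2 scale (edgeR adjusted p = 7.19e-20). Between TailorMix and NEBNext the log2 fold change was 0.09 ± 0.11 and did not pass the test (edgeR adjusted p = 0.467). These calls stand against a background in which most types moved, since 85.7% of types were called between TruSeq and NEBNext (52.4% lower, 33.3% higher), 90.5% between TailorMix and TruSeq (57.1% higher, 33.3% lower) and 66.7% between TailorMix and NEBNext (28.6% higher, 38.1% lower). The very small p-values come from a fit that gave all types the same spread, and the fit across anticodons described further on gave larger ones for nearly the same reads.

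How large the TruSeq change of Gly was, and whether it was called, depended on the scaling. With TMM factors, which assume that most types do not change, the log2 fold change of Gly from NEBNext to TruSeq was 0.03 ± 0.12, not distinguishable from 0 (edgeR adjusted p = 0.821), and from NEBNext to TailorMix 1.59 (edgeR adjusted p = 3.25e-19), while TailorMix against TruSeq stayed at 1.57. TMM moved the median type by 1.41, 1.502 and 0.09 in the contrasts TruSeq minus NEBNext, TailorMix minus NEBNext and TailorMix minus TruSeq, and it turned the split of called types from 7 higher and 11 lower to 11 higher and 7 lower in the first, and from 6 higher and 8 lower to 16 higher and 4 lower in the second. DESeq2 size factors moved the median by 0.69, 0.11 and -0.58 and gave Gly log2 fold changes of -0.68, 0.19 and 0.88. On the main scale, the log2 fold change of Gly minus that of the median type was -0.53 (TruSeq minus NEBNext), 0.20 (TailorMix minus NEBNext) and 0.63 (TailorMix minus TruSeq).

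**Figure D2:**
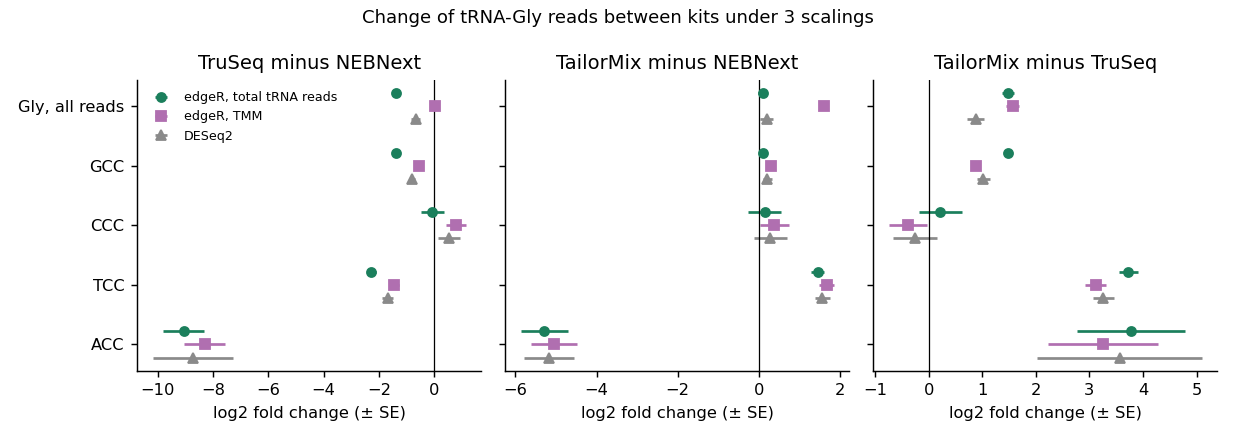
Points give log2 fold changes (x axis, ± SE) of all Gly reads and of the 4 Gly anticodons in 3 contrasts between kits, fitted with edgeR on the total of tRNA reads (circles), with edgeR and TMM factors (squares) and with DESeq2 (triangles). For edgeR the SE was derived from the F statistic of the test. Gly as a whole moved from -1.39 to 0.03 in TruSeq minus NEBNext when TMM was used. GCC and TCC kept their side of 0 in every contrast under all 3 scalings. TMM and DESeq2 factors were computed separately over types and over anticodons. Under them, Gly and GCC are therefore not on the same scale. ACC is fitted against kits with 0 to 6 reads a library, so its fitted sizes depend on the prior count. ACC passed the filter on low counts only through the NEBNext libraries, so its points in the contrasts with NEBNext are not taken as a test.

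A ratio of Gly to Glu, the type that led the NEBNext and TailorMix libraries, is free of this choice. Glu is the name in the lists (glutamate, anticodons CTC and TTC), and it is used here where the study's text speaks of glutamine, since Gln held only 0.0315% to 0.702% of tRNA reads. NEBNext gave 0.770 and 0.747 Gly reads per Glu read, TruSeq 0.459 and 0.610 and TailorMix 0.792 and 0.837. Glu exceeded Gly in all 6 libraries, by most in the TruSeq pair, whose libraries also differed most from each other. On the log2 scale the ratio was -0.40 ± 0.03 for NEBNext, -0.92 ± 0.29 for TruSeq and -0.30 ± 0.06 for TailorMix (SD, n = 2; two-sided exact permutation p = 0.0667, adjusted 0.107). The TruSeq libraries with their low shares of Gly and Glu had high shares of Val (32.5% and 37.3%, against 4.71% and 5.36% for NEBNext) and of His (18.5% and 18.1%, against 2.30% and 2.81%).

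Isoacceptors of glycine were represented very unevenly. In RefSeq's annotation of GRCm38.p6, the mouse genome has 28 nuclear tRNA-Gly genes on 9 chromosomes. Of these, 14 genes of 71 bases carry the anticodon GCC, which reads the codons GGC and GGU, 6 genes of 71 bases carry CCC, which reads GGG, and 7 genes of 72 bases carry TCC, which reads GGA. A single gene of 74 bases, n-TGacc1 on chromosome 11 (48823728 to 48823801), carries ACC. The densest group, with 4 GCC and 5 TCC genes, lies on chromosome 1 between 171037997 and 171102827. The deposited lists name 14 GCC, 7 CCC, 7 TCC and 1 ACC gene.

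Reads with the anticodon GCC made up nearly all of the Gly reads and so carried the kit difference. GCC took 39.0% and 37.6% of the NEBNext tRNA reads, 14.1% and 15.1% of the TruSeq ones and 40.2% and 41.4% of the TailorMix ones. Across the 47 anticodons tested, its log2 fold change was -1.40 ± 0.06 from NEBNext to TruSeq (edgeR adjusted p = 0.000117), 1.49 ± 0.06 from TruSeq to TailorMix (adjusted p = 6.19e-05) and 0.09 ± 0.06 from NEBNext to TailorMix (adjusted p = 0.228). With TMM over anticodons these became -0.57, 0.88 and 0.31, with edgeR adjusted p of 0.00324, 0.000692 and 0.0256, so that GCC remained lower with TruSeq than with NEBNext on that scale. These factors were computed apart from those over types, so GCC and Gly as a whole cannot be compared under TMM.

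ACC passed the filter on low counts only through the NEBNext libraries, where its rate was highest. Its contrasts with NEBNext are thus not independent of the filter, and it is left out of the count of calls. Of the other 3 Gly anticodons, 0 were higher and 2 lower with TruSeq than with NEBNext, 1 was higher and 0 lower with TailorMix than with NEBNext, and 2 were higher and 0 lower with TailorMix than with TruSeq. Over all 47 anticodons, 61.7% were called in the first contrast (19.1% higher, 42.6% lower), 61.7% in the second (23.4% higher, 38.3% lower) and 63.8% in the third (38.3% higher, 25.5% lower), so that counts of 1 or 2 among 3 are no result about Gly.

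CCC, the isoacceptor for GGG, was the runner-up but held at most 1.23% of the Gly reads of a library. Its level, in reads per 1000000 tRNA reads (RPM), was 1141 and 2010 for NEBNext, 1120 and 1871 for TruSeq and 1796 and 1680 for TailorMix, so that the kits overlapped. Within NEBNext and within TruSeq the libraries differed more than the kit means did. The log2 fold changes were -0.08 ± 0.40 (TruSeq minus NEBNext), 0.14 ± 0.40 (TailorMix minus NEBNext) and 0.22 ± 0.40 (TailorMix minus TruSeq), with edgeR adjusted p of 0.899, 0.788 and 0.657. At errors this wide the kits are not shown to be alike in CCC, and the sign of the first and last turned with TMM (0.77 and -0.39) and with DESeq2 (0.53 and -0.25). As a share of Gly reads, CCC amounted to 0.291% and 0.531% for NEBNext, 0.789% and 1.23% for TruSeq and 0.445% and 0.404% for TailorMix (two-sided exact permutation p = 0.2, adjusted 0.2). Each of these shares has a 95% Wilson interval of at most ± 0.0183 percentage points.

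TCC, the isoacceptor for GGA, was scarcer still and separated all 3 kits. NEBNext gave 98.3 and 92.0 RPM, TruSeq 21.5 and 17.7 RPM and TailorMix 250.0 and 269 RPM. No kit overlapped another, with TailorMix highest and TruSeq lowest. The log2 fold changes were -2.28 ± 0.17 from NEBNext to TruSeq (edgeR adjusted p = 0.000271), 1.45 ± 0.17 from NEBNext to TailorMix (adjusted p = 0.00186) and 3.73 ± 0.18 from TruSeq to TailorMix (adjusted p = 8.00e-05), and all 3 kept sign and call under TMM and DESeq2. The counts were small beside those of GCC, with 242 and 161 TruSeq reads, 1228 and 1362 TailorMix reads and 2554 and 1542 NEBNext reads. Within Gly reads, TCC held 0.0251% and 0.0243% for NEBNext, 0.0152% and 0.0116% for TruSeq and 0.0619% and 0.0646% for TailorMix (two-sided exact permutation p = 0.0667, the smallest possible, adjusted 0.107).

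ACC, listed under 1 gene name, was read with NEBNext and hardly at all with the other kits. NEBNext had 672 and 626 ACC reads, TruSeq 1 and 0, and TailorMix 2 and 6. This came to 25.9 and 37.3 RPM, to 0.0889 and 0 RPM, and to 0.407 and 1.18 RPM. A count of 0 in the second TruSeq library allows up to 0.329 RPM (3 counts). With counts summed within each kit, the rate with NEBNext was 619 times that with TruSeq (1298 against 1 reads). It was 37.9 times that with TailorMix (1298 against 8 reads). The rate with TailorMix was 16.3 times that with TruSeq. Summing leaves out the spread between libraries, so these ratios carry no interval and are not a test. In NEBNext nearly all ACC reads were 1 sequence, which had 586 of 672 and 546 of 626 reads, out of 5 and 4 distinct sequences. Because the filter let ACC in through the NEBNext libraries alone, no test of ACC against NEBNext is given. The edgeR fit called ACC higher with TailorMix than with TruSeq (adjusted p = 0.0232), on 8 reads against 1, a call lost when either NEBNext library, the second TruSeq library or the second TailorMix library was left out (adjusted p 0.0560, 0.0576, 0.0675 and 0.111). The limit for a count of 0 and the Wilson intervals above cover counting error only. No molecular identifiers were used, so copies of a molecule cannot be told from new ones.

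**Figure D3:**
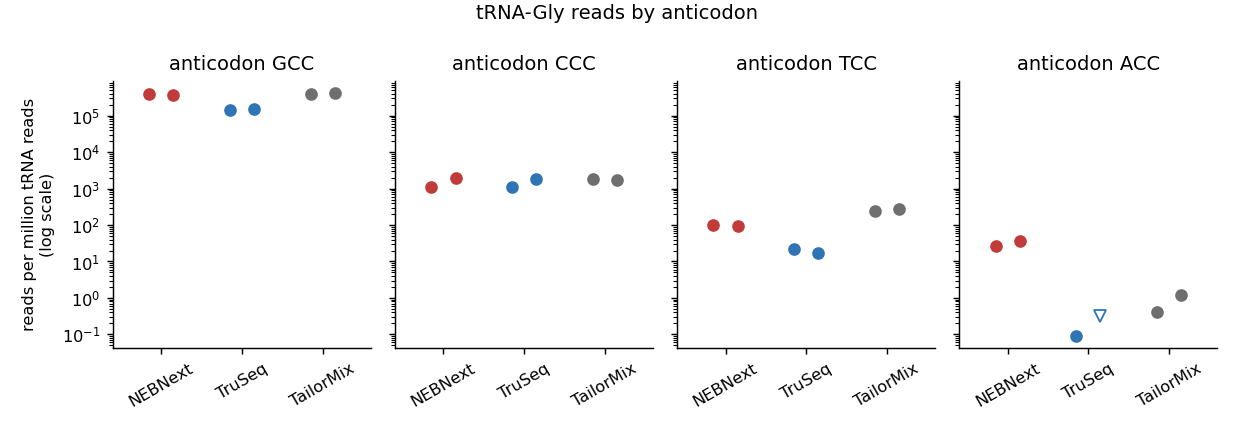
Each point is 1 library's reads per 1000000 tRNA reads (RPM, log axis) for the Gly anticodons GCC, CCC, TCC and ACC, by kit. The open triangle marks the TruSeq library with 0 ACC reads, drawn at the limit of 0.329 that a count of 0 allows. CCC kits overlap, while for TCC the TailorMix points (250.0 and 269) lie above NEBNext (98.3 and 92.0) and TruSeq (21.5 and 17.7).

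The Gly reads were concentrated in few sequences, and the most abundant sequence was a GCC sequence in every library. It held 66.6% and 66.0% of the NEBNext Gly reads, 78.1% and 81.2% of the TruSeq ones and 39.8% and 40.2% of the TailorMix ones. The 2 libraries of a kit lay within 3.12 percentage points and the kits did not overlap (means 66.3% ± 0.419, 79.6% ± 2.21 and 40.01% ± 0.267, SD, n = 2; two-sided exact permutation p = 0.0667, adjusted 0.107). Counting error was at most ± 0.0681 percentage points. In the numbering of the lists, which follows the count, this sequence was number 1 of all annotated non-miRNA sequences in both NEBNext libraries, number 2 in both TailorMix libraries and numbers 9 and 6 in the TruSeq libraries. On its own it made up 26.1% and 24.97% of all NEBNext tRNA reads, 11.1% and 12.4% for TruSeq and 16.1% and 16.7% for TailorMix. Whether it was the same sequence in each kit cannot be read from the lists.

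The kits also differed in the shape of the list below the first place. In the first NEBNext library the sequences in places 2 to 5 held 10.5%, 6.64%, 5.13% and 3.79% of Gly reads. In the first TruSeq library they held 3.80%, 3.79%, 1.92% and 1.78%, a steep drop after the leading sequence. In the first TailorMix library they held 12.0%, 11.1%, 10.2% and 6.75%, a much flatter series. The other library of each kit followed the same course, with differences over the first 10 places of at most 0.592 percentage points for NEBNext, 3.12 for TruSeq and 0.378 for TailorMix. The 10 most abundant sequences together held 96.6% and 95.9% of Gly reads for NEBNext, 93.6% and 94.3% for TruSeq and 91.1% and 91.3% for TailorMix. To reach 90% of Gly reads, NEBNext needed 5 and 5 sequences, TruSeq 6 and 5 and TailorMix 10 and 9 (two-sided exact permutation p = 0.2, adjusted 0.2).

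**Figure D4:**
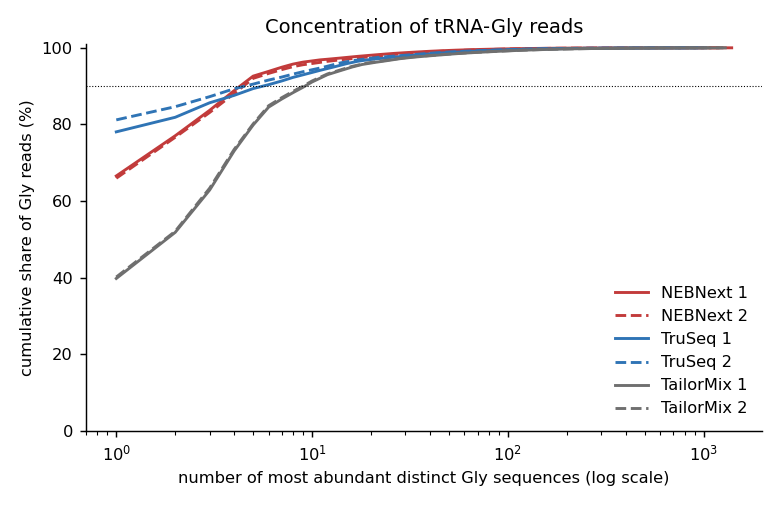
Lines give the cumulative share of Gly reads (%, y axis) held by the most abundant distinct Gly sequences (number on a log x axis), solid for replicate 1 and dashed for replicate 2 of each kit, with a dotted line at 90%. TruSeq starts highest (78.1% and 81.2%), NEBNext crosses above it by place 5, and TailorMix starts at 39.8% and 40.2% and reaches 90% last.

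The effective number of sequences, the inverse of the summed squared shares, sums this up. It was 2.16 and 2.20 for NEBNext, 1.63 and 1.51 for TruSeq and 4.91 and 4.84 for TailorMix. The number of distinct sequences seen depends on depth, and at a common depth of 1390933 Gly reads the expected numbers were 669 and 712 for NEBNext, 971 and 936 for TruSeq and 1094 and 1128 for TailorMix. TruSeq, with the largest share in a single sequence, thus had more distinct Gly sequences than NEBNext at equal depth. Between 34.8% and 37.9% of the distinct Gly sequences had a single read.

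The 10 most abundant sequences of Gly held a larger part of its reads than those of Glu, Val and His did of theirs. Their mean share over the 6 libraries was 93.8% for Gly, 88.8% for Glu, 89.3% for Val and 86.9% for His, and Gly was higher in 6 of 6 libraries against each. The gap varied with the library, from 3.87 to 6.20 percentage points against Glu, 1.15 to 8.09 against Val and 0.568 to 16.5 against His. Against His it was smallest in the first TruSeq library (93.6% for Gly and 93.0% for His). These values are given as a description with no test, since the comparison was added after the values were seen and the libraries of a kit were alike. The share of the leading sequence alone was higher for Gly in 4 of 6 libraries against each type. The exceptions were both TailorMix libraries, where the leading sequence held 51.3% and 51.3% of Val reads, 57.1% and 57.8% of His reads and 40.3% and 40.4% of Glu reads.

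Leaving out the leading sequence of each library changed the anticodon make-up. CCC then held 0.872% and 1.56% of the other Gly reads for NEBNext, 3.60% and 6.53% for TruSeq and 0.739% and 0.675% for TailorMix. The TruSeq pair lay above the others, as before, and the gap between the kits was wider than among all Gly reads. TCC held 0.0751% and 0.0714%, 0.0692% and 0.0616%, and 0.103% and 0.108% in the same order, so that its TruSeq share came close to that of NEBNext once the leading GCC sequence was removed. The removed sequence was GCC in every library, so these shifts follow from its share of Gly reads. They are no separate result about CCC or TCC.

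The gene names attached to these sequences changed between libraries of the same kit. The name with the most Gly reads was tRNA878-GlyGCC in the first NEBNext library (77.8% of GCC reads), tRNA1400-GlyGCC in the second (72.1%), tRNA1819-GlyGCC in the first TruSeq library (80.2%), tRNA1747-GlyGCC in the second (83.98%) and tRNA891-GlyGCC in both TailorMix libraries (41.5% and 40.7%). In the second NEBNext library tRNA878-GlyGCC had 17830 of the 6310688 GCC reads, whereas in the first it had 7887540 of 10139688. The share of Gly reads listed under a GCC gene name varied 6.98-fold to 492-fold between the highest and the lowest library (median 169-fold over 14 names). Over the first 10 places of the Gly list, the libraries of a kit had the same gene name in 4 places with NEBNext, 2 with TruSeq and 3 with TailorMix. All 14 GCC names and all 7 CCC names were found in each of the 6 libraries. Reads from near-identical copies of a tRNA gene cannot be assigned to a copy from such lists, so values by gene name are uncertain.

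**Figure D5:**
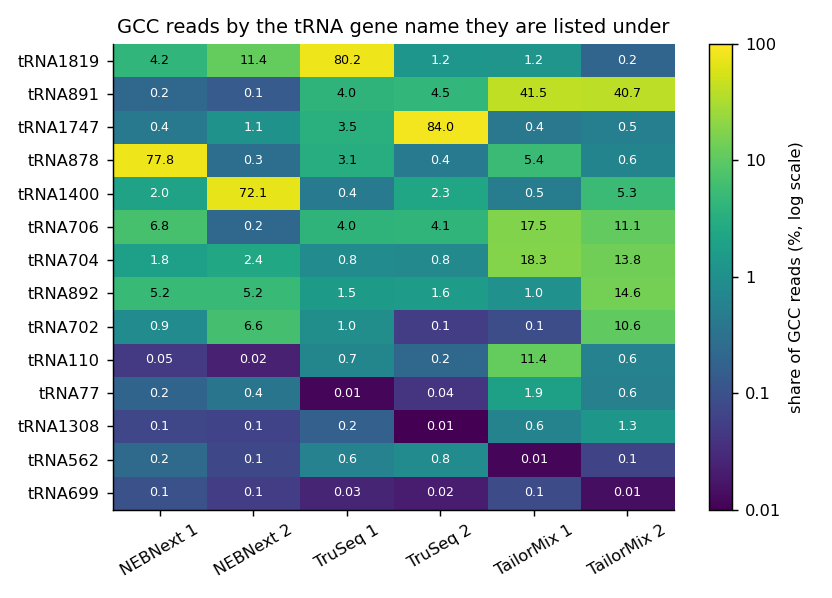
Cells give the share of a library's GCC reads (%, colour on a log scale, value printed) that is listed under each of 14 tRNA-Gly-GCC gene names, by library. The name with the highest share changes between the libraries of NEBNext (tRNA878, 77.8%, and tRNA1400, 72.1%) and of TruSeq (tRNA1819, 80.2%, and tRNA1747, 83.98%) and is tRNA891 in both TailorMix libraries.

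For the scarcer isoacceptors the leading name also changed between libraries. Among CCC reads, tRNA317-GlyCCC led in the first NEBNext library (39.2%), the first TruSeq library (36.5%) and the second TailorMix library (58.6%), tRNA282-GlyCCC led in the second NEBNext (42.7%) and the second TruSeq library (42.8%), and tRNA112-GlyCCC led in the first TailorMix library (56.4%). The libraries led by tRNA282-GlyCCC were the NEBNext and TruSeq libraries with the higher CCC rate of their kit. Reads under that name numbered 1696 and 14374 in the first and second NEBNext library and 869 and 7308 in the first and second TruSeq library, although the second library of both kits had fewer tRNA reads in total. The TailorMix libraries, at 1796 and 1680 RPM of CCC, had 929 and 550 reads under it. The leading CCC sequence had 9328 and 9883 reads in the NEBNext libraries. In the first, these exceeded all tRNA282-GlyCCC reads. Whether the same sequence was listed under different names cannot be read from the lists. Among TCC reads, tRNA1012-GlyTCC (82.7%) and tRNA746-GlyTCC (82.4%) led the NEBNext libraries, tRNA1003-GlyTCC (54.1%) and tRNA1009-GlyTCC (66.5%) the TruSeq libraries, and tRNA1009-GlyTCC both TailorMix libraries (71.0% and 68.4%). All ACC reads were listed under tRNA205-GlyACC.

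The tRNA types whose shares varied most like that of Gly across the 6 libraries were Thr, Glu and Ala, by a root mean square difference of 0.13, 0.30 and 0.43 between the mean-centred log2 shares, out of 20 types. Thr was scarce, with 0.0290% and 0.0318% of tRNA reads in NEBNext, 0.0137% and 0.0144% in TruSeq and 0.0366% and 0.0339% in TailorMix, but followed the same order of kits. Val stood in place 17 (2.05) and His in place 20 (2.29). Among 43 anticodons of other types, ThrTGT (0.16), GluCTC (0.30) and GluTTC (0.31) were most like GCC. GluCTC took 44.9% and 44.3% of the NEBNext tRNA reads, 27.5% and 21.6% of the TruSeq ones and 45.1% and 43.9% of the TailorMix ones. These likenesses describe 6 libraries that share their totals, and shares of a common total are not independent of each other.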

How the data were processed

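Small RNA was sequenced from serum in 6 libraries, 2 for each of 3 kits, grouped by the kit of the labels. The serum number of the labels was taken as the replicate number. The deposited files hold raw read counts, per distinct non-miRNA sequence and per miRNA. For these counts the authors removed adaptors (cutadapt 1.8.1, per the labels), filtered reads on length and quality, mapped them without mismatches (Bowtie 1.1.2) to GRCm38 and annotated them by position. How reads on several gene copies were assigned is not given in the sources used here.

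Counts were summed by tRNA type and anticodon (Python 3.11.15, pandas 2.3.3, scipy 1.17.1). Types (21, unfiltered) and anticodons (47 of 49, with at least 10 counts in 2 libraries) were tested over all 6 libraries with edgeR 4.0.16 (R 4.3.3; glmQLFit and glmQLFTest), total tRNA reads as library size and Benjamini-Hochberg adjustment at 0.05. The SE of an edgeR log2 fold change was derived from the test, as the size of the fold change over the square root of its F statistic. The type fit gave all types the same spread (infinite prior degrees of freedom), and the anticodon fit had 1.73 prior degrees of freedom. Single values were compared by exact permutation. TMM, DESeq2 1.42.0, other library sizes and filters, a replicate block and single libraries left out were alternatives. The fits were tested on simulated counts, in which the anticodon fit missed most 2-fold changes at the fitted dispersion of 0.123, so an anticodon without a call may still differ.

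Named were Gly, Glu, Val and His, every Gly anticodon, the gene names with the most Gly reads per library and per anticodon, and the 3 most similar types and anticodons. Members and lists were chosen with earlier results of these data known. No pair of libraries held the same counts (chi-square per degree of freedom over anticodons 10532, 3869 and 338), although amplified reads are not independent and pairs from the same RNA could differ as much. The labels do not tie libraries to mice, so the spread between these libraries may be technical. The p-values set kit differences against this spread, and the type fit took the same spread for all types. A list of red blood cell miRNAs could not be measured, because 0 of 788 miRNA identifiers could be matched to a name.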

Additional observations from a re-analysis of the deposited data

Results flagged for a closer look

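A few reads were listed as both piRNA and tRNA, without a gene name, and were counted under no tRNA type. There were 182 and 125 such reads in the NEBNext libraries, 5 in the first TruSeq library, 0 in the second, and 60 and 41 in the TailorMix libraries. They were noted because they lie outside the comparisons and, in 5 of 6 libraries, exceed the limit of 3 counts that a count of 0 allows. How many of them are Gly reads was not tested, since no gene is named.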

How the results depend on the processing

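Of 378 values recomputed under an alternative, 346 kept their direction and their side of the threshold, moved by less than the spread between libraries or, as counts of calls, stayed near the main count. Many of them could hardly change. Without either TailorMix library, for example, Gly stayed at -1.39 in TruSeq minus NEBNext, a contrast those libraries do not enter. The 346 are therefore no measure of robustness. With TMM, Gly was at 0.027 ± 0.12 from NEBNext to TruSeq, no longer distinguishable from 0 (edgeR adjusted p = 0.821). GCC was at -0.57 and kept its call (edgeR adjusted p = 0.00324). From NEBNext to TailorMix, Gly was at 1.59 and GCC at 0.31 (both now called). TMM factors were computed separately over types and over anticodons, so these Gly and GCC values are not on the same scale. CCC was 0.77 from NEBNext to TruSeq and -0.39 from TruSeq to TailorMix (both with the other sign, neither called). With DESeq2 these CCC values were 0.53 and -0.25 (likewise). Apart from scale, which TMM and DESeq2 set by construction, the cause was not tested. ACC from TruSeq to TailorMix lost its call with only the 4 libraries compared (3.65) and with sequences of at least 4 counts (5.32), where fewer libraries or reads entered. Leaving out 1 library at a time gave it 2.84 to 6.32, and gave CCC -0.49 to 0.39 (NEBNext to TruSeq), -0.21 to 0.61 (NEBNext to TailorMix) and -0.11 to 0.63 (TruSeq to TailorMix). With a single library left in a kit, that library was assumed to vary like the others. Gly itself ranged from -1.44 to -1.34, 0.07 to 0.12 and 1.43 to 1.53 in the contrasts TruSeq minus NEBNext, TailorMix minus NEBNext and TailorMix minus TruSeq.

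With sequences of at least 4 counts, the TCC share of Gly reads moved to 0.0238%, 0.0108% and 0.0605% (NEBNext, TruSeq, TailorMix). As a share of all annotated reads, Gly moved to 39.2% with TailorMix. Without the most abundant sequence, GCC moved to 98.7%, 94.9% and 99.2%, CCC to 1.22%, 5.06% and 0.707%, TCC to 0.0733%, 0.0654% and 0.105%, and ACC to 0.0244% (NEBNext) and 0.000143% (TruSeq) of the other Gly reads. Pooling both libraries of a kit could not be run for the spread over sequences, because sequence numbers are not shared between libraries.

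The log2 ratios between the 2 libraries of a kit were correlated between kits. Over types the values were 0.200 (NEBNext and TruSeq), 0.0508 (NEBNext and TailorMix) and 0.118 (TruSeq and TailorMix). Over anticodons they were 0.0457, -0.369 and -0.102. These are not correlations of the shares themselves. The numbers were not taken to pair the libraries. Such weak correlations cannot show that the sera differed, because differences between the libraries of a kit may be technical. Whether same-numbered libraries came from the same serum remains unknown. With the replicate number as a block, 17, 14 and 19 types and 27, 27 and 31 anticodons were called, and Gly was at -1.39, 0.09 and 1.48, with no change of call for Gly or its anticodons. With 2 libraries a kit, no permutation test could pass 0.05.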
